A study of Homo sapiens with 4 samples.

Results

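The transcripts examined here are those of 40 human genes of purine and pyrimidine nucleotide metabolism. They were taken by name from a fixed list, and each symbol matched 1 of the 41084 Ensembl gene identifiers in the files, so no choice between identifiers was needed. By role, 17 encode enzymes of de novo synthesis, 8 encode salvage enzymes, 3 encode nucleotide kinases, 6 serve the synthesis of deoxynucleotides (dNTPs) and 6 break down nucleosides or nucleotides. RNA was sequenced from OCI-AML3, an established human acute myeloid leukaemia line, in 2 libraries whose genotype is given as Plex CEBPB and 2 whose genotype is given as Plex Control. The meaning of "Plex" is not explained in the sources used here, the labels name no drug, dose or time, and all 4 libraries come from 1 cell line. Nothing in the labels says that the replicates were separate cultures, so p-values measure the spread between these libraries, which may be technical.

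Cells make nucleotides in 2 ways. De novo synthesis builds the purine ring step by step on ribose phosphate to give IMP, from which AMP and GMP are made, and builds the pyrimidine ring before ribose is added to give UMP, from which CTP is made. Salvage returns free bases and nucleosides to the nucleotide pool. Ribonucleotide reductase turns ribonucleotides into the deoxynucleotides used for DNA, and in leukaemia treatment the same enzymes activate or inactivate nucleoside drugs such as cytarabine.

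Library totals were 18151225 and 21950575 estimated counts in the CEBPB libraries and 19882347 and 21598592 in the Control libraries. Reads assigned to CEBPB, the gene named in the label, stood at 536 and 339 TPM in the CEBPB libraries, against 4.72 and 4.47 TPM in the Control libraries. Of 12 markers of myeloid and NPM1-mutant leukaemia cells, 9 were above 1 TPM in every library, while MPO was below 2 TPM throughout. Of the 12 myeloid markers 4 rose, 5 fell and 3 did not pass. Their summed level was 8108 and 8408 TPM in the CEBPB libraries, against 2062 and 1957 TPM in the Control libraries, and was mostly LYZ, the lysozyme gene, at 7686 and 7921 TPM in the CEBPB libraries, against 1413 and 1308 TPM in the Control libraries. Without LYZ the other 11 summed to 421 and 487 TPM in the CEBPB libraries, against 649 and 650 TPM in the Control libraries. The part of these markers in the results below was not tested. Of 12 markers of other cell types, 5 were listed at 0 in every library and the highest value of any was 1.84 TPM. In bulk RNA, a change in the share of cells in a state and a change in RNA per cell cannot be told apart.

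Most of the biosynthetic genes fell in the CEBPB libraries, while ribonucleotide reductase rose. Breakdown genes went in both directions, with 3 of 6 rising and 2 falling. Of the 40 genes, 39 passed the filter on low counts, and of these 28 fell and 6 rose (edgeR quasi-likelihood test, adjusted p under 0.05 over 13698 identifiers). Across all tested identifiers 24.7% fell, 23.7% rose and 48.5% changed in either direction. The median log2 fold change, CEBPB over Control, was -0.46 over the 39 genes and 0.00 over all tested identifiers. Tested against a 1.5-fold change, 10 of the genes fell and 3 rose, while 8.67% of all tested identifiers fell and 8.66% rose by that test.

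**Figure D1:**
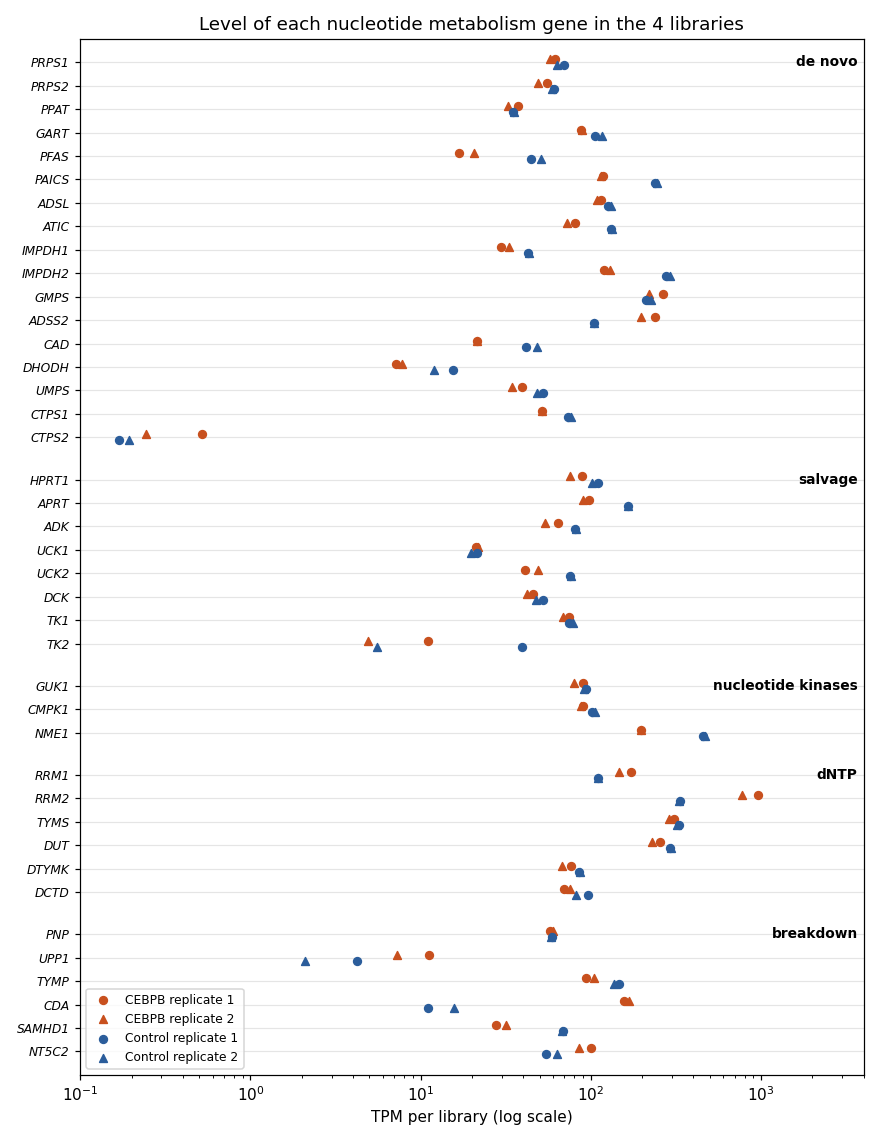
Level of each of the 40 genes in TPM (log axis), grouped by role, with CEBPB libraries in orange and Control libraries in blue; each point is 1 library. CDA and RRM2 lie to the right in both CEBPB libraries, NME1, PAICS, IMPDH2, CAD and PFAS lie to the left, and the TK2 value of Control replicate 1 (39.3 TPM) stands apart from the other 3.

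Levels are given in TPM and differences as log2 fold changes. TPM is transcript abundance, corrected for transcript length and scaled to the same sum in each library. The log2 fold change also uses trimmed mean of M values scaling, which lowers all CEBPB values relative to library totals: scaled by totals alone, the median log2 fold change of all tested identifiers was 0.18. A gene with equal TPM in both groups therefore has a fold change slightly below 0, as PNP shows with 58.7 ± 1.73 TPM in the CEBPB libraries, 58.6 ± 0.371 TPM in the Control libraries (SD, n = 2 each) and a log2 fold change of -0.18. With totals alone 6 of the 39 genes rose and 19 fell, while over all tested identifiers 32.3% rose and 17.2% fell, 49.5% in all. The direction of every called gene was the same under both scalings.

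Enzymes of the IMP pathway fell unevenly. PRPS1, a synthetase of the ribose phosphate donor PRPP, had 61.3 and 57.5 TPM in the CEBPB libraries, against 69.9 and 63.6 TPM in the Control libraries. PRPS1 and its paralog PRPS2 fell by 0.35 and 0.38 on the log2 scale, and neither passed with library totals alone or without Control replicate 1. PPAT, the amidotransferase that commits PRPP to purines, had 37.5 and 32.6 TPM in the CEBPB libraries, against 34.8 and 35.1 TPM in the Control libraries. Its groups overlapped and it did not pass (-0.18, SE 0.08, adjusted p = 0.112, edgeR). PFAS, which adds an amide nitrogen to the growing ring, had 16.9 and 20.7 TPM in the CEBPB libraries, against 44.5 and 51.1 TPM in the Control libraries. PFAS was thus 2.88-fold lower (-1.53, SE 0.15, adjusted p = 0.000997, edgeR).

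PAICS, a bifunctional carboxylase and ligase of the middle of the pathway, had 118 and 115 TPM in the CEBPB libraries, against 238 and 246 TPM in the Control libraries. It was 2.35-fold lower (-1.23, SE 0.06, adjusted p = 0.000197, edgeR), with no overlap between the groups. ATIC, which closes the ring to IMP, had 80.7 and 72.8 TPM in the CEBPB libraries, against 131 and 133 TPM in the Control libraries, and was 1.95-fold lower (-0.97, SE 0.06, adjusted p = 0.000371, edgeR). The trifunctional GART had 87.4 and 88.6 TPM in the CEBPB libraries, against 106 and 117 TPM in the Control libraries, a fall of less than 1.5-fold (-0.52, adjusted p = 0.00409, edgeR). The lyase ADSL fell by 0.38 on the log2 scale. In all, 7 of the 8 genes that lead to IMP fell and none rose; PPAT is the one that did not pass.

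PPAT and PAICS lie head to head on chromosome 4 and share the region between their start sites, so both windows are shown. PPAT (ENSG00000128059.8, GRCh38, 56393362 to 56435615, minus strand) and PAICS (ENSG00000128050.9, 56435741 to 56464579, plus strand) have starts 126 bases apart in GENCODE 29. In RefSeq (GRCh38.p14) the PPAT window runs over chr4:56435566-56435865 on the minus strand and the matching PAICS window over chr4:56435502-56435801 on the plus strand, and 236 bases are common to both. Each is read 5′ to 3′ on its own gene's strand, from 250 bases before the start to 50 bases after it, and the capitals mark the E-box CACGTG.
PPAT: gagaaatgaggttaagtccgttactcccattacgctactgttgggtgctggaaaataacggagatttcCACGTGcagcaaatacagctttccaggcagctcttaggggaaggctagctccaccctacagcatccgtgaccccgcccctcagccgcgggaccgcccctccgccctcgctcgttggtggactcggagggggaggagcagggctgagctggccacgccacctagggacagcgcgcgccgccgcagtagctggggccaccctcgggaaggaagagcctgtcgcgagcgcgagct
PAICS: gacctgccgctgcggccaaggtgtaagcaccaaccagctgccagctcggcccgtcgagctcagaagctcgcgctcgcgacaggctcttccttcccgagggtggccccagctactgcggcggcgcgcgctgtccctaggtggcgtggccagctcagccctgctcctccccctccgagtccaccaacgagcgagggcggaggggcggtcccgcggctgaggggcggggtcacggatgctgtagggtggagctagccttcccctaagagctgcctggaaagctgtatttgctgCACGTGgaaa
The E-box at bases 56435792 to 56435797 is 1 and the same site in both windows. It lies downstream of the PAICS start and not between the start sites. The other PAICS windows listed, chr4:56410257-56410556 and chr4:56436010-56436309, do not hold CACGTG. The ratio of PAICS to PPAT in TPM was 3.14 and 3.54 in the CEBPB libraries, against 6.85 and 7.0 in the Control libraries. The ratios do not overlap between the groups, and neither this difference nor that of the other ratios given below was tested.

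At the branch from IMP the genes parted. IMPDH2 (ENSG00000178035.13, chromosome 3, 49024325 to 49029408), the IMP dehydrogenase that leads to GMP and a target of mycophenolic acid, had 120 and 129 TPM in the CEBPB libraries, against 275 and 293 TPM in the Control libraries. It was 2.58-fold lower (-1.37, SE 0.09, adjusted p = 0.000333, edgeR). Its paralog IMPDH1 had 29.7 and 32.9 TPM in the CEBPB libraries, against 42.5 and 43.3 TPM in the Control libraries, a smaller fall (-0.63, SE 0.10, adjusted p = 0.00434, edgeR). IMPDH2 supplied 80.2% and 79.7% of the summed TPM of the pair in the CEBPB libraries, against 86.6% and 87.1% in the Control libraries.

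GMPS, which makes GMP from XMP, had 266 and 219 TPM in the CEBPB libraries, against 211 and 226 TPM in the Control libraries, with overlap and no call (-0.03, SE 0.09, adjusted p = 0.794, edgeR). ADSS2, the adenylosuccinate synthase on the AMP side, was the one de novo gene that rose. Its level was 239 and 198 TPM in the CEBPB libraries, against 105 TPM in each Control library, or 1.84-fold higher (0.88, SE 0.08, adjusted p = 0.000975, edgeR). ADSS2 was thus higher and IMPDH2 lower, and both also passed the test against a 1.5-fold change. ADSL, which acts both before IMP and in the AMP branch after ADSS2, fell.

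All 4 tested genes of de novo pyrimidine synthesis fell. CAD (ENSG00000084774.14, chromosome 2, 27217390 to 27243943), a single protein with the first 3 activities of the pathway, had 21.3 and 21.5 TPM in the CEBPB libraries, against 41.8 and 48.0 TPM in the Control libraries. It was 2.37-fold lower (-1.25, SE 0.10, adjusted p = 0.000572, edgeR). DHODH, the mitochondrial dehydrogenase inhibited by brequinar, had 7.2 and 7.79 TPM in the CEBPB libraries, against 15.4 and 12.0 TPM in the Control libraries, and was 2.08-fold lower (-1.05, SE 0.17, adjusted p = 0.00508, edgeR). UMPS, which completes UMP, had 39.2 and 34.4 TPM in the CEBPB libraries, against 52.3 and 48.3 TPM in the Control libraries (-0.63, SE 0.08, adjusted p = 0.00243, edgeR).

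CTPS1, which aminates UTP to CTP, had 52.0 and 51.7 TPM in the CEBPB libraries, against 73.3 and 76.7 TPM in the Control libraries (-0.71, SE 0.07, adjusted p = 0.00106, edgeR). Its paralog CTPS2 was the one gene that did not pass the filter, at 0.521 and 0.243 TPM in the CEBPB libraries, against 0.170 and 0.193 TPM in the Control libraries. These CTPS2 values rest on 27 and 11 recovered reads in the CEBPB libraries, against 9 and 11 in the Control libraries, so nearly all CTP synthetase transcript was CTPS1 in every library. Over the de novo class as a whole, 13 of 16 tested genes fell and 1 rose, with a median log2 fold change of -0.63. Summed TPM of the 17 genes was 1347 and 1239.8 in the CEBPB libraries, against 1629 and 1689 in the Control libraries.

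**Figure D2:**
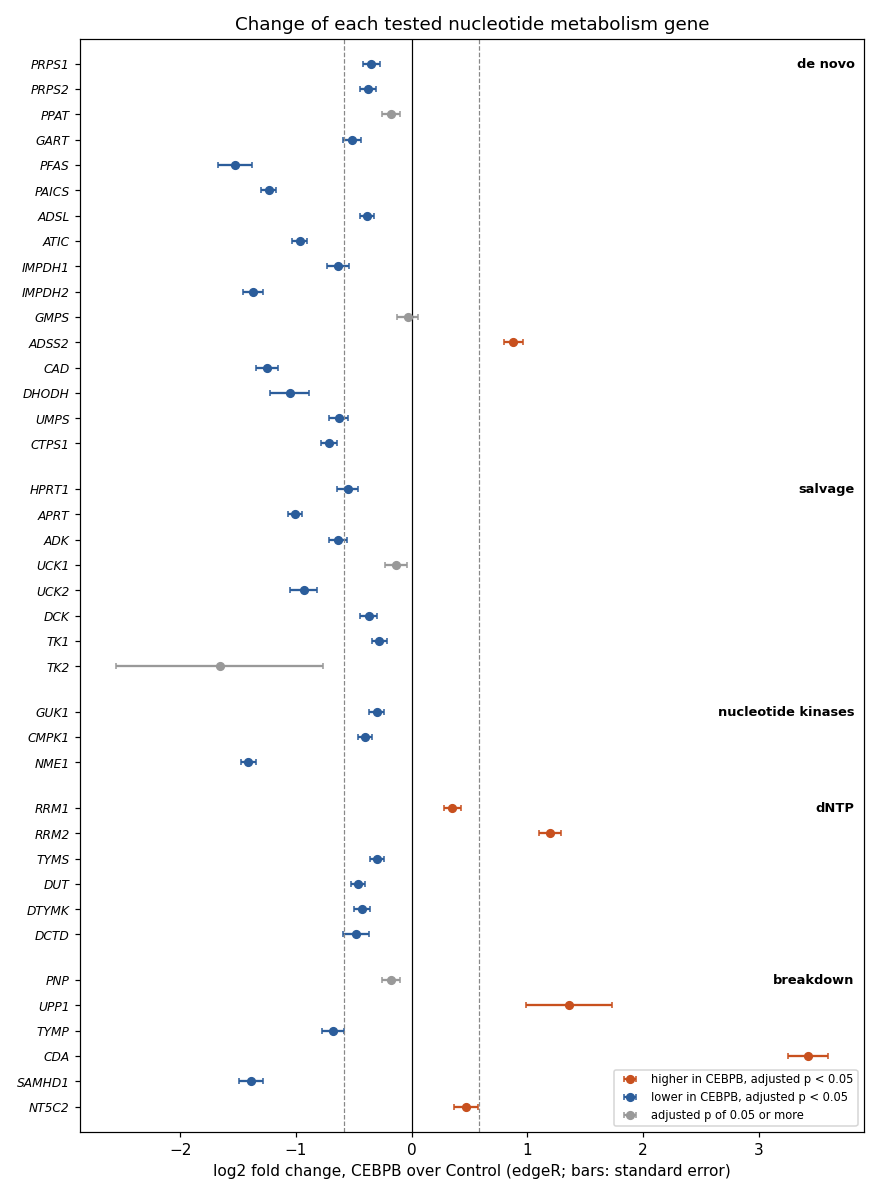
Log2 fold change, CEBPB over Control, of the 39 tested genes with standard errors from edgeR, grouped by role; orange marks genes that rose, blue genes that fell and grey genes that did not pass, and dashed lines mark a 1.5-fold change. De novo, salvage and kinase genes lie mostly left of 0, and CDA (3.42), UPP1, RRM2 and ADSS2 lie to the right of the upper dashed line.

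Salvage genes fell or did not pass. Of 8 tested, 6 fell and 0 rose, with a median log2 fold change of -0.59. APRT, which returns adenine to AMP, had 97.1 and 89.7 TPM in the CEBPB libraries, against 166 and 165 TPM in the Control libraries, and was 2.01-fold lower (-1.01, SE 0.06, adjusted p = 0.000296, edgeR). ADK, adenosine kinase, had 64.3 and 53.7 TPM in the CEBPB libraries, against 80.5 and 81.3 TPM in the Control libraries (-0.64, SE 0.08, adjusted p = 0.00245, edgeR). HPRT1, which salvages hypoxanthine and guanine, had 89.2 and 74.9 TPM in the CEBPB libraries, against 111 and 102 TPM in the Control libraries (-0.55, adjusted p = 0.00506, edgeR). All 3 purine salvage genes therefore fell.

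Of the uridine-cytidine kinases UCK2 fell and UCK1 did not pass. UCK2, which also activates azacitidine, had 41.3 and 48.9 TPM in the CEBPB libraries, against 75.5 and 76.6 TPM in the Control libraries, and was 1.91-fold lower (-0.93, SE 0.12, adjusted p = 0.00225, edgeR). UCK1 had 21.2 and 21.6 TPM in the CEBPB libraries, against 21.5 and 19.9 TPM in the Control libraries, with overlap (-0.13, SE 0.09, adjusted p = 0.292, edgeR). On recovered reads UCK1 passed as lower (-0.25, adjusted p = 0.0282, edgeR). The ratio of UCK2 to UCK1 in TPM was 1.95 and 2.26 in the CEBPB libraries, against 3.51 and 3.85 in the Control libraries.

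Of the 3 deoxynucleoside kinases, DCK and TK1 fell by less than 1.5-fold and TK2 did not pass. DCK, which starts the activation of cytarabine, had 45.6 and 42.1 TPM in the CEBPB libraries, against 52.4 and 47.9 TPM in the Control libraries (-0.37, SE 0.08, adjusted p = 0.0117, edgeR). TK1, the cytosolic thymidine kinase of S phase, had 73.9 and 68.7 TPM in the CEBPB libraries, against 74.8 and 78.3 TPM in the Control libraries (-0.28, SE 0.06, adjusted p = 0.0172, edgeR). Neither DCK nor TK1 passed with library totals alone or without Control replicate 1. TK2, the mitochondrial enzyme, had 11.0 and 4.91 TPM in the CEBPB libraries, against 39.3 and 5.56 TPM in the Control libraries, and its groups overlapped (-1.66, SE 0.90, adjusted p = 0.184, edgeR).

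The TK2 value rests on Control replicate 1. Without that library the log2 fold change was 0.33 (adjusted p = 0.611, edgeR), and without Control replicate 2 it was -2.48 (adjusted p = 0.00604, edgeR). The effective length assigned to TK2 was 212 bases in Control replicate 1, against 1448 bases in Control replicate 2, and 1203 and 2599 bases in the CEBPB libraries. As recovered reads, before division by length, TK2 had 217 and 182 in the CEBPB libraries, against 143 and 148 in the Control libraries. On those reads the gene passed in the other direction (0.43, adjusted p = 0.0236, edgeR), and no direction is given for it here.

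All 3 nucleotide kinase genes fell, NME1 the most of them. NME1 (ENSG00000239672.8, chromosome 17, 51153536 to 51162428), a nucleoside diphosphate kinase that makes triphosphates, had 197 TPM in each CEBPB library, against 456 and 469 TPM in the Control libraries. It was 2.66-fold lower (-1.41, SE 0.06, adjusted p = 0.000173, edgeR). NME1 ranked 6 of 40 by mean TPM in the CEBPB libraries and 1 of 40 in the Control libraries. A readthrough gene, NME1-NME2, overlaps it on the same strand at 9.96 and 6.19 TPM in the CEBPB libraries, against 5.55 and 5.19 TPM in the Control libraries. GUK1 and CMPK1, the guanylate and UMP-CMP kinases, fell by 0.30 and 0.40 on the log2 scale. GUK1 did not pass with library totals alone, nor without either Control library.

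Ribonucleotide reductase rose while the thymidylate genes fell slightly. RRM2 (ENSG00000171848.16, chromosome 2, 10120698 to 10131419), its small, cell-cycle-regulated subunit, had 962 and 774 TPM in the CEBPB libraries, against 336 and 332 TPM in the Control libraries. The groups were far apart, and RRM2 was 2.29-fold higher (1.20, SE 0.09, adjusted p = 0.000537, edgeR). It was the most abundant of the 40 transcripts in the CEBPB libraries and ranked 2 of 40 in the Control libraries. RRM1, the large catalytic subunit, had 172 and 147 TPM in the CEBPB libraries, against 110 and 111 TPM in the Control libraries (0.35, SE 0.07, adjusted p = 0.0133, edgeR). RRM1 did not pass without Control replicate 1 (adjusted p = 0.0870, edgeR) or Control replicate 2 (adjusted p = 0.0800, edgeR). The ratio of RRM2 to RRM1 was 5.58 and 5.28 in the CEBPB libraries, against 3.06 and 3.0 in the Control libraries.

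RRM2 is shown with CDA, the catabolic gene with the largest rise, because these are the most changed of the genes that rose in the dNTP and breakdown classes. The RefSeq windows (GRCh38.p14, 5′ to 3′) are chr2:10122489-10122788, plus strand, for the downstream of 2 RRM2 starts and chr1:20588847-20589146, plus strand, for CDA. Capitals mark CCAAT in RRM2, the CCAAT box, and TTTCCCGC in CDA, an E2F-type element.
RRM2: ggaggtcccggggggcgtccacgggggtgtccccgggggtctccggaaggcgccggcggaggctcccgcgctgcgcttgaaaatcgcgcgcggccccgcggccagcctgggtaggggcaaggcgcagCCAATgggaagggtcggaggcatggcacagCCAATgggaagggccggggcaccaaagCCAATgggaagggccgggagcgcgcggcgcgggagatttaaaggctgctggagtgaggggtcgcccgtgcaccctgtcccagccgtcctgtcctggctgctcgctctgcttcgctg
CDA: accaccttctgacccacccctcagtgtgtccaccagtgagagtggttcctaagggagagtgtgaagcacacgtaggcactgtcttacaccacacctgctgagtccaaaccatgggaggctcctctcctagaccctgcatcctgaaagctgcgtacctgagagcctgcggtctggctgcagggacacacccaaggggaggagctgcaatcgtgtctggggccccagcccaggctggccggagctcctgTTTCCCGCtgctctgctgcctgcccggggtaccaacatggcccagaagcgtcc
The RRM2 window holds CCAAT 3 times. Of 40 genes, 38 matched promoter windows by symbol. On either strand CACGTG lay in a window of 6 of the 38 genes (15.8%, against 8.77% of all 27305 genes with a window). They are ATIC, DCK, DHODH, NME1, PAICS and PPAT, with PAICS and PPAT sharing the site. Some genes have several windows, and by window CACGTG lay in 6 of 59, against 7.26% of all 35116. The E2F-type letters TTTGGCGC lay in 3 (7.89%; 0.795% of all) and TTTCCCGC in 4 (10.5%; 1.98% of all), with DUT in both sets. CCAAT lay in 14 (36.8%; 39.7% of all), and the palindrome TTGCGCAA of C/EBP factors in 0 of 38 (0.172% of all). CACGTG and TTGCGCAA read the same on both strands, and none of the 5 strings contains another. These matches describe letters in windows of 300 bases and do not show binding. MYC, a factor known to bind CACGTG, had 74.4 and 80.2 TPM in the CEBPB libraries, against 230 and 245 TPM in the Control libraries; its part in the values of these genes was not tested.

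The 4 thymidylate genes were lower by a small margin in the CEBPB libraries. TYMS, thymidylate synthase, had 309 and 288 TPM in the CEBPB libraries, against 329 and 320 TPM in the Control libraries (-0.30, SE 0.06, adjusted p = 0.0102, edgeR). ENOSF1 overlaps TYMS on the other strand at 17.6 and 18.1 TPM in the CEBPB libraries, against 21.1 and 18.9 TPM in the Control libraries, and the strand setting is not given in the sources used here. DUT, which makes dUMP and keeps uracil out of DNA, had 254 and 228 TPM in the CEBPB libraries, against 290.4 and 297 TPM in the Control libraries (-0.46, adjusted p = 0.00283, edgeR). The thymidylate kinase DTYMK fell by 0.43 and the dCMP deaminase DCTD by 0.48 on the log2 scale. With library totals alone, 1 of these 4 genes fell, DUT. Summed TPM of the 6 dNTP genes was 1844 and 1580 in the CEBPB libraries, against 1248 and 1228 in the Control libraries, and RRM2 alone differed by more than the sum did.

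Replication genes give the cell cycle setting of the dNTP genes. Of 26 listed genes of replication and the G1/S step, 19 fell and 2 rose, with a median log2 fold change of -0.47. These are 73.1% and 7.69% of the list, against 24.7% and 23.7% of all tested identifiers. Tested against a 1.5-fold change, 3 of the 26 fell and 0 rose, while 8.67% of all tested identifiers fell and 8.66% rose. The largest fall was that of POLD1, a replicative polymerase subunit (-1.19). POLD1 had 33.8 and 28.0 TPM in the CEBPB libraries, against 62.5 and 62.1 TPM in the Control libraries. Cyclin E2 (CCNE2) rose by 0.77 and RFC4 by 0.20 on the log2 scale, and 5 genes did not pass, among them PCNA. RRM2 thus rose in libraries in which most replication genes were lower, though most of these falls did not pass the test against a 1.5-fold change. The part of cell cycle phase in these values was not tested.

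**Figure D3:**
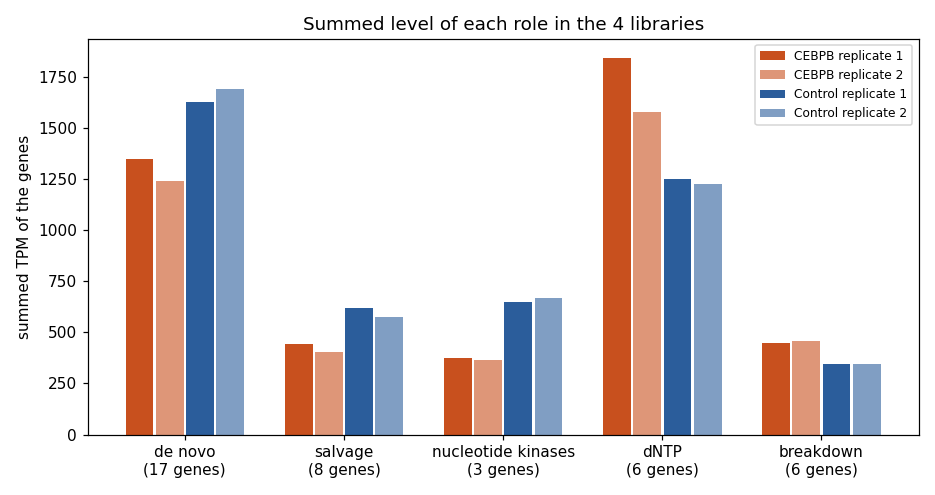
Summed TPM of the genes of each role in each library, with bars starting at 0, CEBPB libraries in orange and Control libraries in blue. The dNTP and breakdown sums are higher in both CEBPB libraries, and the de novo, salvage and kinase sums are lower, TK2 of Control replicate 1 (39.3 TPM) being part of the salvage sum.

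Genes of breakdown split, with 3 of 6 rising and 2 falling and a median log2 fold change of 0.15. CDA (ENSG00000158825.6, chromosome 1, 20588948 to 20618908), the cytidine deaminase that also inactivates cytarabine, had 157 and 168 TPM in the CEBPB libraries, against 11.0 and 15.7 TPM in the Control libraries. At 10.7-fold higher (3.42, SE 0.17, adjusted p = 0.000197, edgeR) it was the largest change among the 39 tested genes. It ranked 7 of 40 by mean TPM in the CEBPB libraries and 38 of 40 in the Control libraries. UPP1, uridine phosphorylase, had 11.1 and 7.22 TPM in the CEBPB libraries, against 4.21 and 2.09 TPM in the Control libraries, and was 2.57-fold higher (1.36, SE 0.37, adjusted p = 0.0300, edgeR). UPP1 did not pass without CEBPB replicate 1 (adjusted p = 0.137, edgeR) or without Control replicate 2 (adjusted p = 0.0641, edgeR).

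TYMP, thymidine phosphorylase, had 94.2 and 105 TPM in the CEBPB libraries, against 146 and 136 TPM in the Control libraries, and was 1.60-fold lower (-0.68, SE 0.10, adjusted p = 0.00370, edgeR). The genes ODF3B and SCO2 overlap TYMP on the same strand, so the division of reads among them is uncertain. ODF3B fell as well (-0.85, adjusted p = 0.0142, edgeR), while SCO2 did not pass (-0.24, adjusted p = 0.102, edgeR). PNP, the purine nucleoside phosphorylase, overlapped between groups and did not pass (-0.18, adjusted p = 0.113, edgeR). Another identifier without a symbol has the same PNP values in every library, so their reads are not told apart.

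The enzymes that act on nucleotides themselves moved in opposite directions. SAMHD1 (ENSG00000101347.11, chromosome 20, 36889773 to 36951901), which hydrolyses dNTPs and the active form of cytarabine, had 27.5 and 31.6 TPM in the CEBPB libraries, against 68.6 and 68.1 TPM in the Control libraries. It was 2.62-fold lower (-1.39, SE 0.11, adjusted p = 0.000535, edgeR). NT5C2, a cytosolic nucleotidase of IMP and GMP, had 100.3 and 85.1 TPM in the CEBPB libraries, against 54.5 and 63.4 TPM in the Control libraries (0.47, SE 0.10, adjusted p = 0.0135, edgeR). NT5C2 did not pass without CEBPB replicate 1 (adjusted p = 0.0575, edgeR) or without Control replicate 1 (adjusted p = 0.0752, edgeR).

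The further ratios complete the paired genes. The groups overlapped for PRPS2 over PRPS1, at 0.901 and 0.856 in the CEBPB libraries, against 0.866 and 0.931 in the Control libraries. For NME2 over NME1 the ratio was 3.15 and 3.01 in the CEBPB libraries, against 2.46 and 2.28 in the Control libraries. RRM2 over RRM2B, the p53-induced small subunit, was at 16.1 and 14.5 in the CEBPB libraries, against 8.71 and 8.96 in the Control libraries. RRM2B itself also rose (0.40, SE 0.07, adjusted p = 0.00694, edgeR). Its level was 59.8 and 53.4 TPM in the CEBPB libraries, against 38.6 and 37.0 TPM in the Control libraries.

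**Figure D4:**
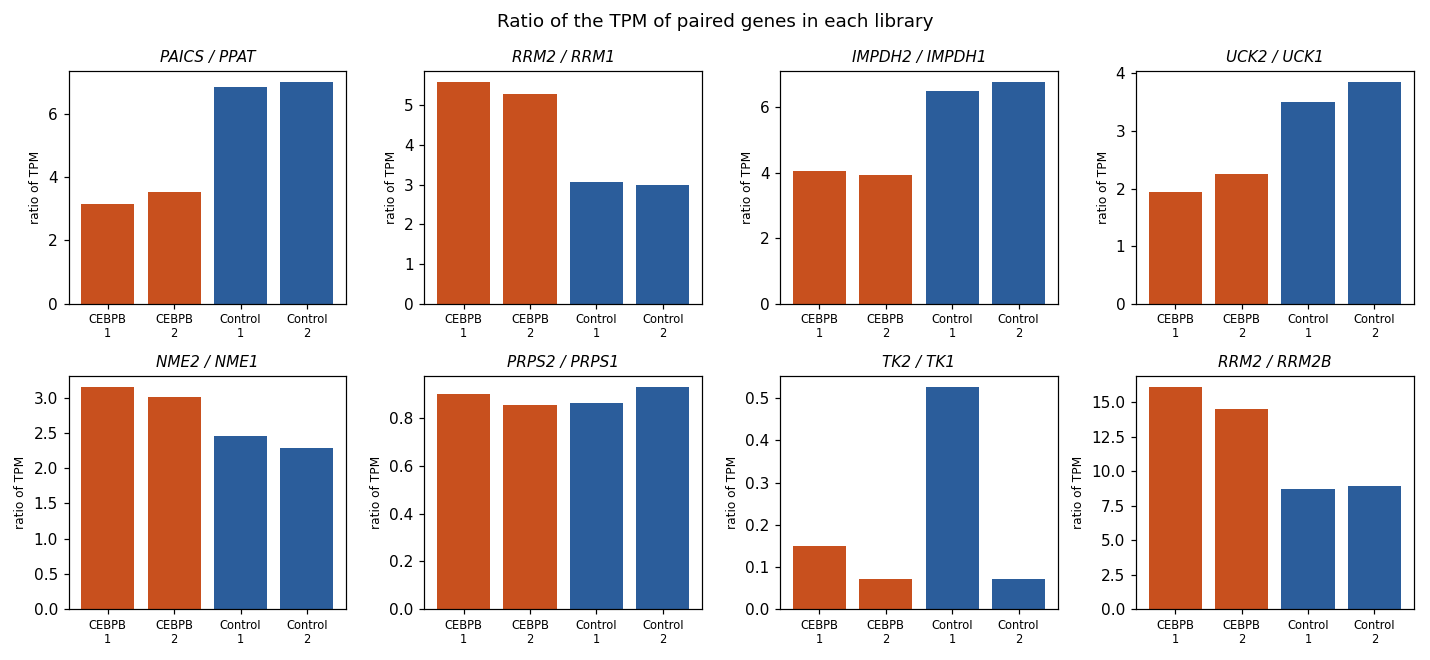
Ratio of the TPM of 2 genes in each library, with bars starting at 0 and each panel on its own axis, CEBPB libraries in orange and Control libraries in blue. PAICS over PPAT, IMPDH2 over IMPDH1 and UCK2 over UCK1 are lower in both CEBPB libraries, RRM2 over RRM1 is higher (5.58 and 5.28 against 3.06 and 3.0), and PRPS2 over PRPS1 overlaps.

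Outside the 40 genes, 57 others of nucleotide metabolism and transport were listed, of which 44 passed the filter. Of these 21 fell and 7 rose, with a median log2 fold change of -0.43. As shares of the 44 these are 47.7% and 15.9%, against 24.7% and 23.7% of all tested identifiers. The 13 that were not tested stood at 0.563 TPM or less in each library, among them XDH, which ends purine breakdown in uric acid. By a rule of an adjusted p under 0.05 and a change of at least 2-fold, 12 of the tested genes are named; others were added after their values were seen to complete a family or a pathway. Among enzymes of adenine compounds, adenosine deaminase ADA had 3.53 and 3.22 TPM in the CEBPB libraries, against 14.1 and 12.9 TPM in the Control libraries (-2.19, SE 0.14, adjusted p = 0.000329, edgeR). The AMP deaminase AMPD2 fell by 1.07 on the log2 scale, while AK9 (1.92) and the GMP reductase GMPR (1.44) rose. Both were at low levels: AK9 had 13.8 and 10.8 TPM in the CEBPB libraries, against 3.72 and 2.03 TPM in the Control libraries, and GMPR reached at most 3.51 TPM in any library.

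On the pyrimidine side DPYD, which starts the breakdown of uracil and thymine, had 36.4 and 23.1 TPM in the CEBPB libraries, against 4.37 and 4.41 TPM in the Control libraries. DPYD was 5.97-fold higher (2.58, SE 0.22, adjusted p = 0.000760, edgeR). DPYS, the next enzyme of that breakdown, was low, at 0.293 and 0.656 TPM in the CEBPB libraries, against 1.67 and 1.12 TPM in the Control libraries, and did not pass (-1.75, SE 0.57, adjusted p = 0.0530, edgeR). The pyrimidine nucleotidase NT5C3A fell (-0.43, adjusted p = 0.00648, edgeR). Genes of pyrimidine breakdown thus moved in both directions. Of the 5 other NME family genes tested, 3 fell, NME2 (-1.03), NME3 (-1.92) and NME4 (-1.40), while NME7 rose (0.47, adjusted p = 0.0417, edgeR) and NME6 did not pass (-0.08, adjusted p = 0.540, edgeR). DCTPP1, which removes unwanted dCTP analogues, fell as well (-1.19). NME1 and NME2 are close paralogs, so the division of reads between them is uncertain.

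Of 6 listed nucleoside transporters 4 were tested, and 3 of these fell. SLC29A1, the equilibrative transporter ENT1 that carries nucleosides and cytarabine into cells, had 49.9 and 53.0 TPM in the CEBPB libraries, against 131 and 144 TPM in the Control libraries (-1.60, SE 0.09, adjusted p = 0.000260, edgeR). SLC29A2 had 3.12 and 3.21 TPM in the CEBPB libraries, against 5.83 and 5.92 TPM in the Control libraries (-1.08). SLC28A3, a concentrative transporter, fell by 2.24 on the log2 scale at 0.404 and 0.727 TPM in the CEBPB libraries, against 2.05 and 2.63 TPM in the Control libraries. SLC29A3, an equilibrative transporter of intracellular membranes, had 3.74 and 3.44 TPM in the CEBPB libraries, against 2.86 and 2.94 TPM in the Control libraries, and did not pass (0.13, SE 0.20, adjusted p = 0.641, edgeR). SLC28A1 and SLC28A2 were listed at 0 in every library.

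**Figure D5:**
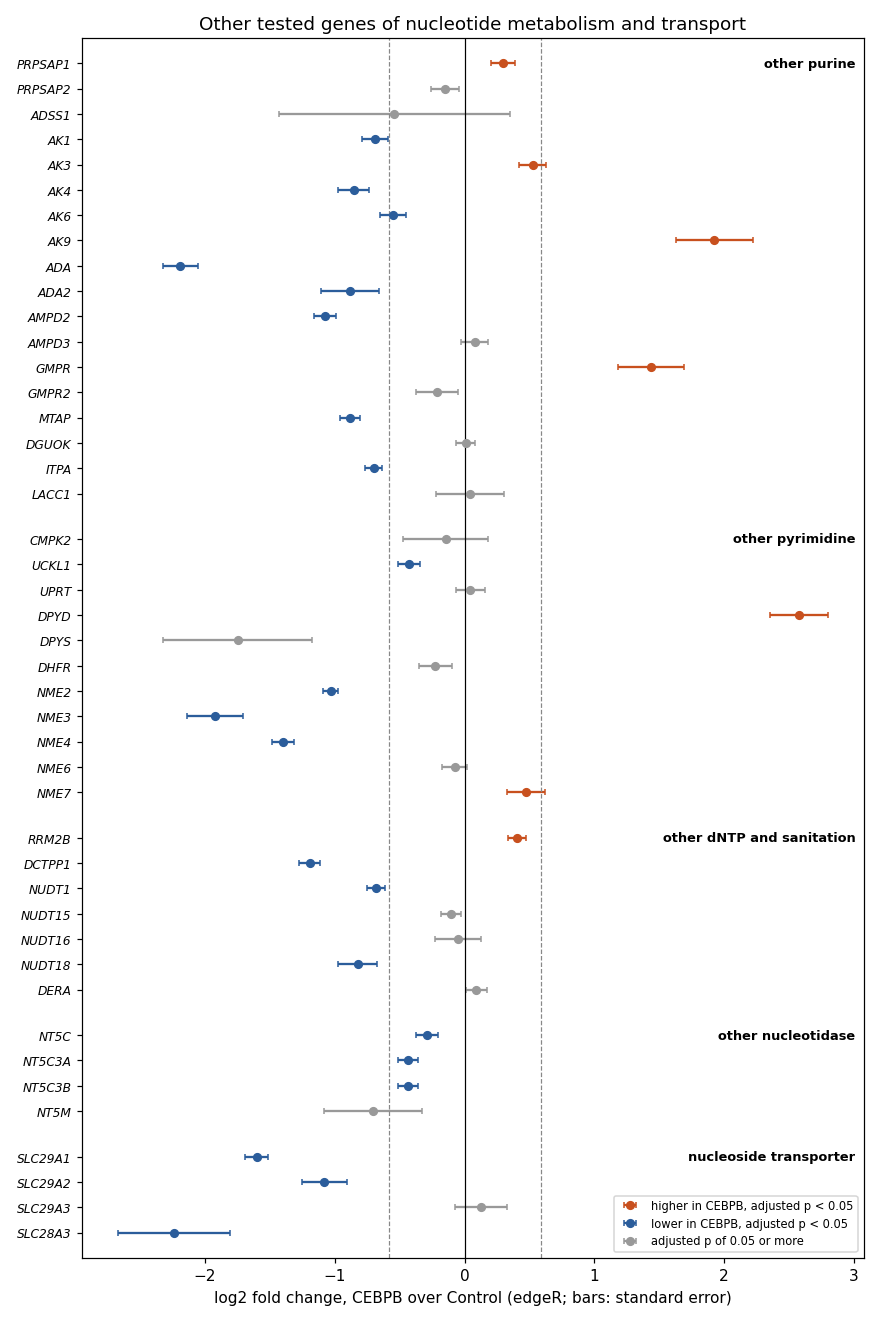
Log2 fold change, CEBPB over Control, of the 44 tested genes among 57 others of nucleotide metabolism and transport, with standard errors from edgeR; orange marks genes that rose, blue genes that fell, grey genes that did not pass, and dashed lines a 1.5-fold change. DPYD (2.58) and AK9 (1.92) lie farthest to the right, and SLC28A3 (-2.24) and ADA (-2.19) farthest to the left.

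The effective length of a gene's transcripts can shift when longer or shorter transcripts take a larger share, which was not tested here. It was greater in both CEBPB libraries than in both Control libraries for 17 of the 40 genes and smaller for 2, while the same held for 43.0% and 9.27% of all tested identifiers. The median difference was 2.53% over the 40 genes and 2.27% over all tested identifiers. RRM2, the small subunit of ribonucleotide reductase, had 1645 and 1711 bases in the CEBPB libraries, against 1443 and 1446 bases in the Control libraries, a difference of 16.2%. NT5C2, the nucleotidase, had 2492 and 2388 bases in the CEBPB libraries, against 2272 and 2059 bases in the Control libraries. TYMP, the thymidine phosphorylase, went the other way, with 1177 and 1123 bases in the CEBPB libraries, against 1369 and 1264 bases in the Control libraries. No test of these lengths was made, and a shift of transcript shares was not told apart from other differences between the libraries.

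Small changes make up part of the count. Of the 28 genes that fell, 15 were at least 1.5-fold lower and 13 were lower by less, from -0.55 to -0.28 on the log2 scale. Without Control replicate 1, 7 of these 13 did not pass, namely PRPS1, PRPS2, DCK, TK1, GUK1, TYMS and DCTD (adjusted p from 0.0568 to 0.105, edgeR). Without Control replicate 2, 4 did not pass, namely ADSL, TK1, GUK1 and TYMS (adjusted p from 0.0527 to 0.143, edgeR), and DCTD did not pass without CEBPB replicate 1 (adjusted p = 0.0762, edgeR). Scaled by library totals alone, 9 did not pass, these 8 and DTYMK (adjusted p from 0.0554 to 0.328, edgeR). Tested on log2 TPM with 1 added, 6 did not pass, namely PRPS1, PRPS2, DCK, TK1, GUK1 and TYMS (limma). With 0.1 added 7 did not pass, the same 6 and DCTD. Of the 39 tested genes, the 34 called did not overlap in TPM between the groups, and the 5 not called did. Among all tested identifiers, called or not, 77.4% did not overlap. A set of 13 genes stayed called in the same direction under all 16 alternatives: PFAS, PAICS, ATIC, IMPDH2, ADSS2, CAD, DHODH, APRT, UCK2, NME1, RRM2, CDA and SAMHD1. The alternatives include the test against a 1.5-fold change, and these 13 are the genes that passed it. The set therefore reflects size of change as well as processing. GART, IMPDH1, UMPS, CTPS1 and HPRT1, among others, failed to pass only in that test.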

How the data were processed

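Poly(A) RNA of OCI-AML3 cells was made into libraries with a stranded kit, per the labels' protocols. Reads were processed with Trimmomatic 0.39 and kallisto 0.46.2 on GRCh38, per the submitters' processing notes; the annotation release, strand setting and step from transcripts to genes are not given in the sources used here. The authors deposited expected counts (estimated counts) per gene, TPM, and each gene's effective transcript length in bases, a unit of its own. In the deposited counts each value is the TPM times 1 constant per library, so they carry no length; recovered reads are TPM times length, rescaled to the library total.

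Counts were rounded, filtered with filterByExpr and scaled by TMM (factors 0.938 to 1.10). They were tested in edgeR 4.0.16 (R 4.3.3, biological coefficient of variation 11.3%) without a replicate term. The threshold was a Benjamini-Hochberg adjusted p under 0.05 over all 13698 identifiers. Standard errors (SE) are the absolute log2 fold change divided by the square root of the edgeR F statistic. The test was also run on counts simulated from the spread of these libraries, with few changed genes. That run does not show how the test behaves when many genes change, as here. Symbols come from a table of 35690 matched identifiers, positions from GENCODE 29. Genes, lists and rules were chosen with earlier results of these data known. Members past the threshold and at least 1.5-fold different, and paired genes, are given in full; other pathway genes are named at a log2 change of 1 or more, and 1 gene of that list is not reported here; MYC and overlapping genes were added after their values were seen. Alternatives were DESeq2 1.42.0 and its size factors, library totals, other filters, limma 3.58.1 (voom, and log2 TPM with 1 or 0.1 added), a test against a 1.5-fold change, a replicate block, recovered reads with and without a length offset, and each library left out, the remaining library of that group then borrowing its spread from the other. Figures used matplotlib 3.10.9.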

Additional observations from a re-analysis of the deposited data

How the results depend on the processing

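All 34 called genes kept their direction under all 16 alternatives. Against a 1.5-fold change, 3 genes rose and 10 fell: 6 de novo, 2 salvage, 1 kinase, 0 dNTP and 1 breakdown gene lower, and 1 de novo, 1 dNTP and 1 breakdown gene higher. Library totals left 1 dNTP gene lower and log2(TPM + 0.1) left 2. With recovered reads 1 salvage gene rose (TK2, 0.43). Leaving out 1 library gave 4 to 6 genes higher and 21 to 28 lower, 1 to 2 dNTP genes higher, 2 to 4 dNTP genes lower and 1 to 3 breakdown genes higher.

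Direction changed for 5 genes that were not called. PPAT was at 0.0051 with library totals. GMPS was at 0.15 with library totals, 0.14 on log2 TPM with 1 or 0.1 added, and from -0.13 to 0.072 with 1 library left out. UCK1 was at 0.047 with library totals and at 0.045 and 0.047 on log2 TPM with 1 and 0.1 added. PNP was at 0.0031 with library totals and at 0.0030 and 0.0031 on log2 TPM. TK2 ranged from -2.48 to 0.33 with 1 library left out. Scaling by totals also moved the split over all tested identifiers, with 65.2% of calls higher, against 49.0% with TMM. For both of these shifts the cause was not tested.

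The replicate numbers only name samples: deviations of same-numbered libraries from their group means had a correlation of -0.047 over 11466 genes. With a replicate block 6 genes rose and 29 fell, the added one being TK2 (adjusted p = 0.0324, edgeR). With 2 libraries a group, an exact permutation test cannot go below p = 0.333, and CTPS2 was too shallow to test.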

Other observations

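PPAT and PAICS are not the only head-to-head pair. Of the 40 genes, 9 have a protein-coding start on the other strand within 1000 bases. TK1 starts 84 bases from AFMID, a formamidase of tryptophan breakdown, which had 17.6 and 24.4 TPM in the CEBPB libraries, against 42.5 and 47.6 TPM in the Control libraries (-1.28, adjusted p = 0.00352, edgeR), while TK1 fell by 0.28 on the log2 scale. DTYMK starts 94 bases from ING5, a chromatin reader, which had 34.6 and 33.2 TPM in the CEBPB libraries, against 25.1 and 25.8 TPM in the Control libraries (0.24, adjusted p = 0.0417, edgeR), while DTYMK fell by 0.43. In both pairs the partners changed by different amounts, and the differences were not tested.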
